A study of Mus musculus with 30 samples.

Results

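The measurement described here is the genotype difference in the 24 h response to lipopolysaccharide (LPS): the log2 change from unstimulated cells to 24 h of LPS in cells without Irf4, minus the same change in control cells. It rests on 20 of the 30 arrays of the series, 5 in each of 4 groups, chosen by the genotype and treatment in their titles, and the arrays titled A to E are called replicates 1 to 5. Dendritic cells, which take up and present antigen, had been cultured from bone marrow of C57BL/6 mice and were purified with CD11c magnetic beads once treated. Control cells came from CD11c-Cre mice, and knockout (KO) cells came from CD11c-Cre IRF-4 flox/flox mice, titled IRF4flox, so both genotypes carried the Cre transgene. Each genotype was either left unstimulated or given LPS for 24 h, and the 10 arrays at 6 h of LPS entered the fit and were used for a separate set of values. Cre under the CD11c promoter acts only in cells that express it, and cells that had not recombined would have been purified with the others. The sources used here do not give the LPS dose, the age and sex of the mice, or what a replicate was (mouse or culture). The p-values therefore measure only how far these samples spread, which may be technical.

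IRF4 is a transcription factor that binds DNA weakly alone and more strongly beside partners, such as the ETS factor PU.1 or the AP-1 factor BATF. In dendritic cells it is known for its part in the development of some subsets and in their maturation and antigen presentation. LPS is sensed by the Toll-like receptor TLR4, which acts through NF-kB to raise cytokines and maturation genes, and through the adaptor TRIF and IRF3 to raise type I interferon, which in turn raises interferon-stimulated genes. A difference of responses equals the KO-minus-control difference at 24 h (the end) minus that in unstimulated cells (the start). A positive value can therefore come with a lower start in KO cells, with a higher end, or with both, and the share of it that lies at the start was computed as minus the start difference over the difference of responses.

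Levels are log2 ratios of Cy5-labelled sample to a Cy3-labelled universal mouse reference, which cancels between groups. Over the 20 arrays the median Cy5 signal was 112 to 151, and 44.8% to 66.1% of 41174 probes were well above background. Irf4 itself was lower in KO cells by 7.49-fold unstimulated and 4.50-fold at 24 h, with no overlap of arrays (exact two-sided permutation test, n = 5 per group, p = 0.00794 for both, the smallest this design allows). The sources used here do not say whether its probe lies within the deleted exons. The dendritic cell genes Itgax (CD11c) and Zbtb46 were well above background on every array, and of 23 tested genes of a list of dendritic cell markers 16 were.

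The array labelled control LPS 24 h replicate 2 stood apart, so results are given with and without it. Across 729 genes that changed at least 2-fold in KO cells (6.48% of those tested), each control 24 h array was set against the KO response. The slope was 0.137 for replicate 2 and 0.635 to 0.785 for the other control arrays. This array was also scanned on a later day than the other 19, as was 1 array at 6 h, control LPS 6 h replicate 3. Among 44 interferon-stimulated genes tested, replicate 2 lay below all other control 24 h arrays in 42, and within or below the range of unstimulated control cells in 31. Control LPS 6 h replicate 3 lay below all other control arrays at 6 h in all 44, and within or below the unstimulated control range in 36. It enters the difference only through the pooled error. The median rise of 30 maturation and migration genes was 0.82 on replicate 2 and 0.77 to 0.86 on the other 4 control arrays. That of the 44 interferon-stimulated genes was 0.02 on it and 1.68 to 3.42 on the others. That of 28 proinflammatory genes was -0.08 and 2.05 to 2.47. Why this array stood apart was not tested.

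The response to 24 h of LPS differed between the genotypes in 99 of 11250 genes tested (0.88%). It was larger or more positive in KO cells in 48 (0.427%) and smaller or more negative in 51 (0.453%), and 60 (0.533%) differed at least 2-fold. At an unadjusted p under 0.05 there were 1268 genes (11.3%). Without control LPS 24 h replicate 2 there were 95 (0.844%), 44 higher and 51 lower, of which 71 were called in both fits. All 99 kept their direction without it. With control LPS 6 h replicate 3 left out 183 genes were called, all 99 among them, and with both of these arrays left out 201 were called, 92 of the 99 among them. The responses of the 5 KO and 5 control arrays (each array minus its genotype's unstimulated mean) did not overlap in 98 of the 99, beside 11% of all genes tested. The 99 were called on these same arrays, so this separation largely follows from the call and is no further evidence. It also leaves out the spread of the unstimulated arrays. Most slides held 1 of the 4 groups. With slide as a random block 35 of the 99 genes were called. With slide as a fixed block, where the contrast runs through a chain of slides, 6032 genes were called, and 55 of the 99 kept their call and 85 their sign. No slide held more than 2 of the 4 groups, so no value within a slide can be had.

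The positive genes fell into a set that started low and a set that ended high, in near equal numbers. Of the 48, 20 were lower in KO cells at the start (7.16% of all genes were) and not called at 24 h. Another 24 were not called at the start and higher at 24 h (7.02% of all genes were), and 4 were both lower at the start and higher at the end. Of the 24, 13 were well above background on all arrays of the 4 groups, as were 17 of the 20. A gene was tested if well above background on all 5 arrays of 1 group, so treated KO arrays alone could admit it. The start of such a gene could hardly be called. Of the 51 negative genes, 27 were not called at the start and lower at 24 h (8.44% of all genes were), 14 were higher at the start (6.96% of all genes were) and not called at 24 h, and 5 went from higher to lower. A further 3 were higher at both and 2 lower at both. Without replicate 2 the low-start set had 24 genes and the high-end set 16, and the set with a lower end had 31, where 5.13% of all genes were called higher and 6.63% lower at 24 h. A median share of 82.1% of the difference lay at the start in the low-start set and 7.15% in the high-end set. These sets use the arrays of the difference itself and are a description.

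**Figure D1:**
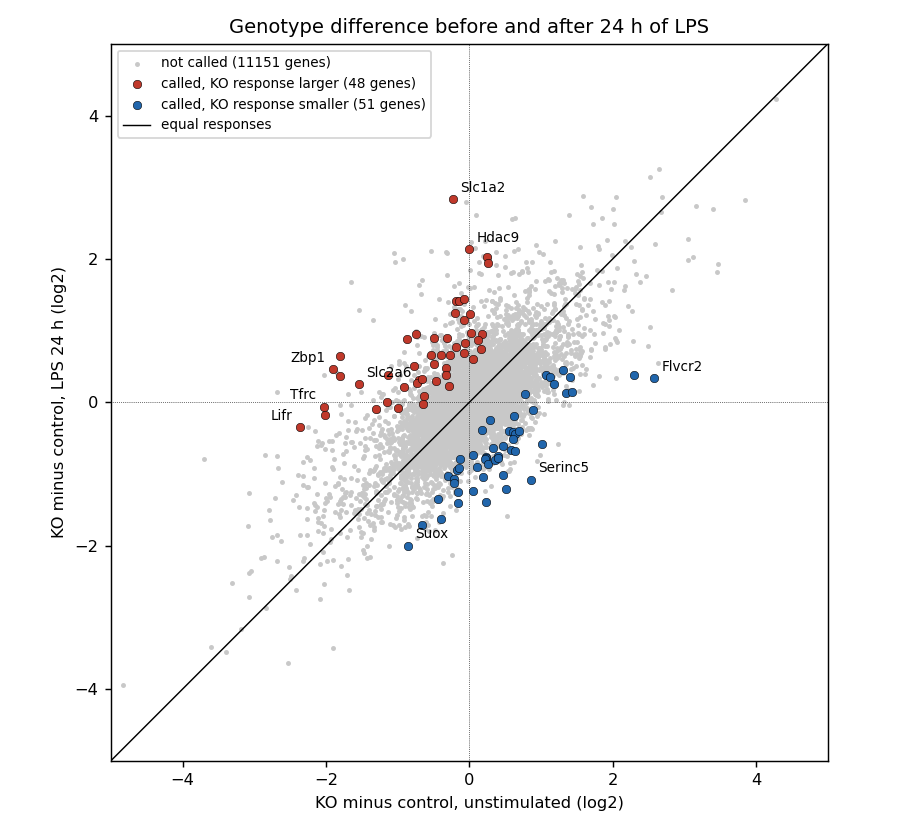
Each point is a gene, with KO minus control in unstimulated cells (log2) on the x axis and KO minus control after 24 h of LPS (log2) on the y axis. Points on the diagonal had equal responses in both genotypes. The 48 red genes lie above it and the 51 blue genes below it; red genes at the left near the dotted horizontal line started low and met the control level, and those near the vertical line started level and ended high.

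The start and end comparisons share no arrays, which gives the background for these sets. Of 806 genes lower in KO cells at the start, 374 (46.4%) were also lower at 24 h, 428 (53.1%) were not called there and 4 were higher. Of 783 genes higher at the start, 342 (43.7%) were higher at 24 h and 436 (55.7%) were not called. A loss of the starting call by 24 h was thus the more frequent course for genes called at the start. The difference of responses was called in 20 of the 428 genes and in 14 of the 436, beside 0.88% of all genes tested.

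Over all genes, 7.24% rose and 5.1% fell in control cells, and 10.3% rose and 7.81% fell in KO cells. Among the 20 low-start genes 4 rose in both genotypes, namely Gbp2 and Zbp1 of the interferon-stimulated list, Psmb8 of the MHC class I list and Nfkbie of the feedback inhibitor list. Gbp2 encodes an interferon-induced GTPase that acts against intracellular pathogens. Its levels in unstimulated control cells were 2.52, 2.68, 2.55, 2.32 and 2.13, and in unstimulated KO cells -0.02, 1.11, 0.99, 1.11 and -0.02, with no overlap. At 24 h they were 4.22, 2.71, 4.20, 3.72 and 3.77 in control cells and 4.21, 4.34, 4.11, 3.99 and 3.84 in KO cells. The ends overlapped, replicate 2 was the lowest control array there, and KO arrays 1 and 5 were the lowest at the start. Gbp2 rose by 1.28 in control cells and 3.47 in KO cells (log2), a difference of 2.18 ± 0.47 (SE; adjusted p = 0.0198), or 1.93 without replicate 2 (adjusted p = 0.0356). Of this difference 82.9% lay at the start.

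Zbp1 encodes a sensor of Z-form nucleic acid that can trigger inflammatory cell death. It stood at 1.78, 1.85, 1.68, 1.81 and 1.54 in unstimulated control cells and at -0.86, 0.25, 0.39, 0.28 and -0.94 in unstimulated KO cells. At 24 h its levels were 3.95, 2.11, 3.86, 2.98 and 3.48 in control cells and 3.90, 3.97, 4.06, 3.47 and 3.30 in KO cells. The starts were apart on every array and the ends were not. The difference of responses was 2.37 ± 0.49 (adjusted p = 0.0150), and 2.08 without replicate 2 (adjusted p = 0.0245).

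Psmb8 encodes a catalytic subunit of the immunoproteasome, which cuts peptides for MHC class I. Control cells went from between 2.44 and 2.57 to between 3.13 and 3.58, and KO cells from between 0.87 and 1.70 to between 2.96 and 3.71. The end difference was 0.00398, and 99.7% of the difference of responses of 1.15 ± 0.27 lay at the start (adjusted p = 0.0345; without replicate 2, 1.09 and 0.0579, no longer called). Nfkbie encodes IkB-epsilon, an inhibitor that holds NF-kB in the cytoplasm. Control cells rose from between 1.13 and 1.82 to between 2.16 and 2.76, and KO cells from between -0.06 and 0.77 to between 1.99 and 2.71. Its difference was 1.21 ± 0.30 (adjusted p = 0.0445), and 1.17 without replicate 2 (adjusted p = 0.0762, not called).

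Of the 20 low-start genes, 12 were lowest among the KO unstimulated arrays on replicate 1, which was lowest for 23.9% of all genes, and 3 on replicate 5, which was lowest for 29.9%. Irf4 itself was at -2.2, -0.85, -1.06, -0.84 and -2.51 on KO unstimulated replicates 1 to 5, so it was lowest on replicates 1 and 5. Its part in these levels was not tested. With KO unstimulated replicates 1 and 5 left out, 18 of the 20 were still called lower at the start, while 8 were still called for the difference. Gbp2 then had a difference of 1.75 (adjusted p = 0.0901), Zbp1 one of 1.89 (adjusted p = 0.08) and Psmb8 one of 0.86 (adjusted p = 0.14), so all 3 calls were lost. Tnfsf13b also lost its call (1.16, adjusted p = 0.0825), while Nfkbie kept its call there (1.36, adjusted p = 0.027). Among the 20 fits that leave out 1 array, however, Nfkbie lost its call in 14, Psmb8 in 11, Gbp2 in 1 and Zbp1 in 0. Over 19 other settings Nfkbie lost its call in 6 and reversed in 1. Without KO unstimulated replicate 1 alone, 7 genes were in the low-start set and 50 were called for the difference in all.

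The reference promoters of the called genes were searched for letters that IRF factors are known to bind, in the 250 bases before the start of each gene in RefSeq (GRCm38.p6), on both strands. Windows were found for 87 of the 99 genes. The core of an interferon response element, GAAA then any 2 bases then GAAA, was in 4 of 41 positive genes (9.76%), in 2 of 46 negative genes (4.35%) and in 3.42% of 9070 genes tested. An ETS-IRF composite, GGAA then any 2 bases then GAAA, was in 2 of the 41 and 1 of the 46, beside 2.45% of genes tested, and an AP-1-IRF composite, GAAA then TGA, any base and TCA, was in 0 of 87 and in 0.0882% of genes tested. The NF-kB consensus was in 1 of the 41 (Nfkbie) and 5 of the 46, beside 5.30%. Of 33 interferon-stimulated genes with a window 20 (60.6%) held the interferon response element letters. The 5 positive genes with an IRF-type match are shown 5′ to 3′ on the gene's strand with the match in capitals, since the study removed an IRF. Gbp2 lies at chr3:142620559-142620658 on the plus strand, Tnfsf13b at chr8:10006572-10006632 (plus), Pilra at chr5:137836402-137836528 (minus), Pilrb2 at chr5:137871936-137872008 (minus) and Slc1a2 at chr2:102706219-102706318 (plus).
Gbp2: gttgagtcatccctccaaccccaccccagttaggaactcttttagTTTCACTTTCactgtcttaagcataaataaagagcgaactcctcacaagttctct
Tnfsf13b: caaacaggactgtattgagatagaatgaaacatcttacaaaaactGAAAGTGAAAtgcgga
Pilra: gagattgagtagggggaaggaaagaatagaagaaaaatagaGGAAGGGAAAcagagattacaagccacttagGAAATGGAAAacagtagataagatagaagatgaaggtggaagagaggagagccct
Pilrb2: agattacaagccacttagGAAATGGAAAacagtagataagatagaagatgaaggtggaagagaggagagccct
Slc1a2: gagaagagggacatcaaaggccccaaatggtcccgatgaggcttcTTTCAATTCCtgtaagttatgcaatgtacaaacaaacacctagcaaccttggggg
The first capitals of Pilra are the ETS-IRF composite and the second the interferon response element, and in Gbp2 and Slc1a2 the match is on the opposite strand. Pilra and Pilrb2 share a run of 179 bases in these windows, so they are close copies. The match in Gbp2 ends 50 bases before the start and that of Tnfsf13b 7 bases before it. A match says only that these letters are there.

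Further low-start genes, chosen for mention after their values were seen, were not called in control cells and rose in KO cells. Slc2a6 encodes a hexose transporter of the lysosome. It went from between 3.33 and 3.70 to between 3.11 and 4.53 in control cells, and from between 1.57 and 2.14 to between 3.57 and 4.48 in KO cells. Its difference was 1.79 ± 0.33 (adjusted p = 0.00767), 1.62 without replicate 2 (adjusted p = 0.0124), and it kept its call without KO unstimulated replicates 1 and 5. Tnfsf13b encodes BAFF, a survival factor for B cells. Its levels were 0.88, 0.74, 1.03, 1.17 and 1.34 in unstimulated control cells and -0.84, 0.35, -0.02, 0.44 and -0.41 in unstimulated KO cells, and the difference was 1.51 ± 0.32 (adjusted p = 0.0194; without replicate 2, 1.47 and 0.0342). Mgarp, which encodes a mitochondrial membrane protein, rose in KO cells by 2.16 and had a difference of 2.45 ± 0.58 (adjusted p = 0.0362). That call was lost without replicate 2 (2.21, adjusted p = 0.0695) and in 12 of the 20 fits that leave out 1 array.

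In 9 of the 20 low-start genes control cells fell and KO cells were not called. At 24 h the arrays of the genotypes overlapped in 7 of the 9, and in the other two (Sla and Unc119b, named after their values were seen) every control array lay below every KO array. Lifr, the receptor for leukaemia inhibitory factor, was at 1.76, 1.91, 1.74, 1.72 and 1.86 in unstimulated control cells. At 24 h control cells were at -0.46, 0.74, -0.60, -0.39 and 0.03. KO cells were at -0.84, -0.48, -0.50, -0.40 and -0.58 unstimulated and at -0.52, -0.46, -0.62, -0.27 and -0.55 at 24 h. Only the unstimulated control arrays were high, and replicate 2 was the highest of the treated control arrays. The difference was 2.01 ± 0.34 (adjusted p = 0.00505) and larger without replicate 2, at 2.23 (adjusted p = 0.000711). It was not well above background on control LPS 24 h replicate 4 and on KO unstimulated replicates 1 and 5.

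Tfrc, the transferrin receptor that takes up iron, followed the same course. Control cells fell from 0.99, 0.77, 0.49, 1.42 and 1.05 to -1.29, -0.57, -1.52, 0.01 and -0.23, while KO cells were between -1.44 and -0.40 unstimulated and between -1.16 and -0.41 at 24 h. The difference was 1.97 ± 0.46 (adjusted p = 0.0352; without replicate 2, 2.01 and 0.0436), and the call was lost in 13 of the 20 fits that leave out 1 array. Ptpn22 encodes a phosphatase that restrains antigen-receptor signalling. Its control levels fell from 0.15, 0.50, 0.56, -0.79 and -1.0 to between -1.71 and -1.17, and KO levels lay between -2.63 and -1.92 unstimulated and between -1.76 and -1.35 at 24 h. Its difference of 1.84 ± 0.44 (adjusted p = 0.0400) was not called without replicate 2 (1.75, adjusted p = 0.0705) or without KO unstimulated replicates 1 and 5 (1.73, adjusted p = 0.102). The call was lost in 15 of the 20 fits that leave out 1 array. Pim3, a serine/threonine kinase chosen after its values were seen, fell in control cells and rose in KO cells, with a difference of 0.91 ± 0.13 (adjusted p = 0.000675; without replicate 2, 0.93 and 0.000711). Its levels were 0.11 to 0.19 in unstimulated control cells and -1.03 to -0.66 in unstimulated KO cells, and -0.58 to -0.17 against -0.56 to -0.31 at 24 h.

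Markers of other cells also differed between the groups. The summed Cy5 signal of 8 tested of 19 markers of mast cells, basophils and eosinophils was 0.94 to 2.08 (scaled to a total of 1000 over all genes) in unstimulated control cells and 0.195 to 0.367 at 24 h. In KO cells it was 0.253 to 0.920 and then 0.132 to 0.564, and 2 of the 8 were well above background on all unstimulated KO arrays. The summed signal of 24 tested macrophage markers of 30 was 16.4 to 21.8 and then 11.6 to 15.9 on the same scale in control cells, and 25.0 to 26.4 and then 20.2 to 25.3 in KO cells. That of 14 tested neutrophil markers of 21 was 0.222 to 1.66 and then 0.403 to 2.77 in control cells, and 0.127 to 0.864 and then 0.18 to 0.233 in KO cells. Of the 14, 2 were called lower in KO cells at the start and 7 at 24 h (8.44% of all genes were). The part of these markers in the differences, those of the genes with a lower end included, was not tested, and fewer cells of a type cannot be told apart from less RNA per cell.

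**Figure D2:**
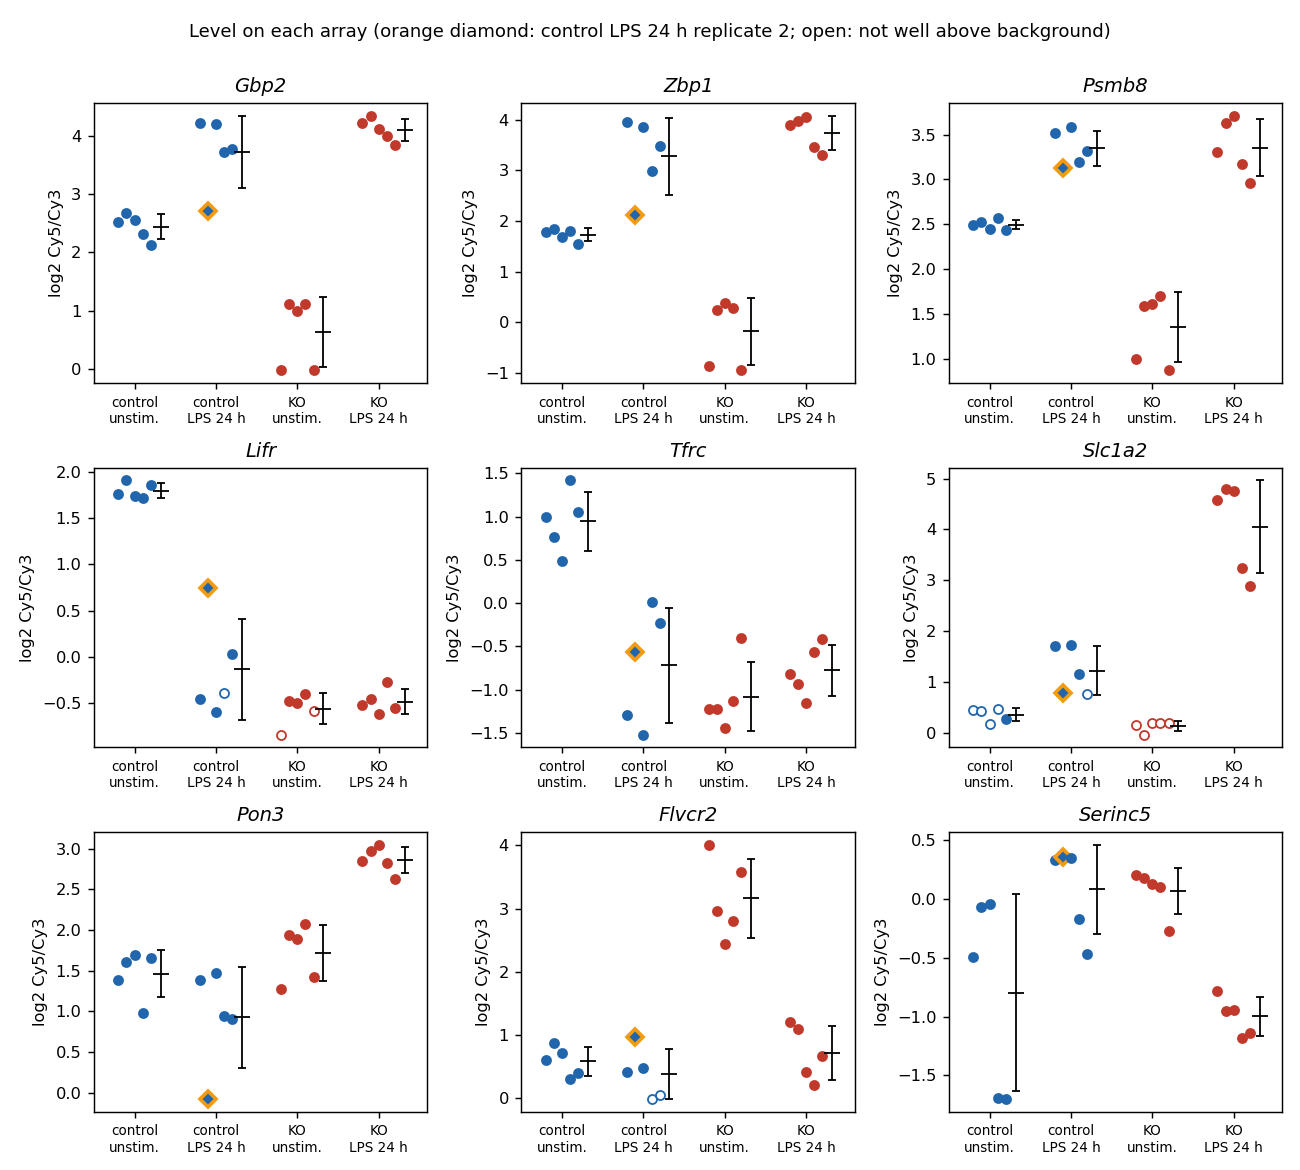
Level (log2 Cy5/Cy3, y axis) of 9 genes on each of the 5 arrays of 4 groups (x axis), with the mean and SD as bars; control is blue, KO red, the orange diamond is control LPS 24 h replicate 2 and open symbols are not well above background. Gbp2, Zbp1 and Psmb8 started lower in KO cells and met the control level, Lifr and Tfrc fell in control cells to the KO level, Slc1a2 and Pon3 ended higher in KO cells, and Flvcr2 and Serinc5 fell in KO cells.

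The 24 genes that ended higher had no called difference at the start. In 20 of them control cells were not called and KO cells rose, and in 1 both rose. In 3 of them control cells fell and KO cells were not called, so these were not called as induced in KO cells. Slc1a2, a transporter that clears glutamate from outside the cell, had the largest difference among the called genes with a name. Its levels were 0.44, 0.42, 0.17, 0.46 and 0.27 in unstimulated control cells and 0.15, -0.04, 0.18, 0.18 and 0.18 in unstimulated KO cells. At 24 h they were 1.71, 0.77, 1.72, 1.15 and 0.75 in control cells and 4.58, 4.79, 4.76, 3.24 and 2.89 in KO cells. All 5 KO arrays at 24 h were above all control arrays, with replicates 1 to 3 above 4 and 5. It was well above background on 1 unstimulated control array and on no unstimulated KO array. The size of its rise in both genotypes, and of the difference of responses, is therefore known only roughly. The mean log2 ratios of the 2 KO groups were 3.92 apart (15.2-fold). The difference of responses was 3.05 ± 0.44 (adjusted p = 0.000675), and 2.94 without replicate 2 (adjusted p = 0.00154). The call held in all 20 fits that leave out 1 array.

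Hdac9 encodes a class IIa histone deacetylase. Unstimulated levels were between 0.35 and 0.70 in control cells and between 0.06 and 0.84 in KO cells. At 24 h control cells were at 1.16, 0.19, 1.40, 0.15 and -0.18 and KO cells at 3.36, 3.1, 3.29, 1.94 and 1.72. The starts overlapped and the ends did not. The difference was 2.14 ± 0.48 (adjusted p = 0.0269; without replicate 2, 2.05 and 0.0454), and its call was lost without KO unstimulated replicates 1 and 5 (1.99, adjusted p = 0.0843).

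Atp1b1, a subunit of the sodium-potassium pump, was not well above background on any control array. It rose to between -1.43 and -0.04 in KO cells at 24 h, at least 3.63-fold above control cells (the mean Cy5 signal against the higher, per array, of the lowest signal well above background and its own). It was called for the difference (adjusted p = 0.00684; without replicate 2, 0.0124), but with control cells below background at both times the fitted 1.79 is no measured difference of responses. Pon3, an enzyme of the paraoxonase family that hydrolyses lactones, was at 1.39, -0.08, 1.47, 0.94 and 0.90 in control cells at 24 h and at 2.85, 2.97, 3.05, 2.82 and 2.63 in KO cells. Its starts overlapped, between 0.98 and 1.69 in control cells and between 1.28 and 2.07 in KO cells. Replicate 2 was the lowest control array, and the difference of 1.68 ± 0.31 (adjusted p = 0.00684) was 1.43 without it (adjusted p = 0.00574).

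Among genes named after their values were seen, Vegfc, a growth factor for lymphatic vessels, rose to between -0.35 and 0.08 in KO cells and to between -1.91 and -1.10 in control cells. Its difference was 1.56 ± 0.30 (adjusted p = 0.00841). The zinc finger gene Zfp975 ended between -0.09 and 0.69 in KO cells and between -1.56 and -0.85 in control cells, with a difference of 1.52 ± 0.28 (adjusted p = 0.00767). Dkk1, a secreted inhibitor of Wnt signalling, was not well above background in control cells at 24 h. KO levels were at 1.59, 1.97, 2.25, 0.67 and 0.55, at least 1.97-fold above control cells. Unstimulated, it was well above background on 1 control array and no KO array, so the fitted difference of 1.22 rests largely on levels below background. It was called (adjusted p = 0.0456), but not without replicate 2 (adjusted p = 0.0762). Without replicate 2, 15 of the 24 kept their call.

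The 4 genes that crossed from lower to higher were Pilra, Adora2b, Ptges2 and Adamts7, all named after their values were seen. Pilra encodes an inhibitory receptor of myeloid cells. It went from 3.25, 2.77, 2.79, 3.80 and 4.00 to 3.77, 2.93, 3.62, 3.70 and 3.64 in control cells. In KO cells it went from 2.08, 2.36, 2.52, 2.50 and 2.79 to 4.35, 4.41, 4.58, 4.42 and 4.33. Every KO array was above every treated control array at the end. The difference was 1.76 ± 0.29 (adjusted p = 0.00363; without replicate 2, 1.61 and 0.00487), with 49.5% of it at the start. Its neighbour Pilrb2 had a difference of 1.39 ± 0.29 (adjusted p = 0.0139), and as close copies their probes may share signal. Adora2b, an adenosine receptor coupled to cAMP, had a difference of 1.69 ± 0.33 (adjusted p = 0.00889), with KO levels of 2.42 to 2.83 against control levels of 0.59 to 2.32 at 24 h. Without replicate 2 the higher end of Ptges2 was no longer called (adjusted p = 0.0532). Ptges2, a prostaglandin E synthase, and Adamts7, a metalloproteinase, differed by 1.19 ± 0.25 (adjusted p = 0.0179) and 1.02 ± 0.18 (adjusted p = 0.00529).

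The 27 negative genes with a lower end were the largest set. In 15 of them control cells rose and KO cells were not called, in 7 KO cells fell and control cells were not called, and in 5 both occurred. Serinc5, a membrane protein that restricts retroviruses, was at -0.49, -0.07, -0.04, -1.69 and -1.70 in unstimulated control cells and at 0.33, 0.36, 0.35, -0.17 and -0.47 at 24 h. KO cells went from 0.20, 0.18, 0.13, 0.10 and -0.27 to -0.78, -0.95, -0.94, -1.18 and -1.14. All treated KO arrays were below all treated control arrays, and unstimulated control replicates 4 and 5 were far below 1 to 3. The difference was -1.94 ± 0.43 (adjusted p = 0.0265; without replicate 2, -1.87 and 0.0442).

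Elmo1 encodes an adaptor that activates the GTPase Rac in engulfment and migration. It rose in control cells by 0.88 and fell in KO cells by 0.83. At 24 h control arrays were at 2.02, 3.12, 1.78, 1.94 and 1.94 and KO arrays at 1.29, 0.96, 1.01, 0.60 and 0.92. Replicate 2 was the highest control array here, and the difference of -1.71 ± 0.34 (adjusted p = 0.0101) was -1.47 without it (adjusted p = 0.0124). Nlk, a kinase that acts on Wnt and Notch signalling, had control levels of 0.61, 1.52, 0.67, 1.24 and 1.26 at 24 h and KO levels of 0.30, 0.32, 0.04, -0.23 and -0.16. Its difference was -1.47 ± 0.26 (adjusted p = 0.00590; without replicate 2, -1.36 and 0.0109). Glcci1, a gene induced by glucocorticoids, fell in KO cells from between -1.36 and -0.82 to between -2.17 and -1.81, while control cells were between -1.12 and 0.19 at 24 h. Its difference was -1.62 ± 0.34 (adjusted p = 0.0177; without replicate 2, -1.40 and 0.0253).

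Further members of this set were chosen after their values were seen. Glud1, the mitochondrial glutamate dehydrogenase, was at 0.82 to 1.16 in control cells at 24 h and at -0.37 to -0.12 in KO cells, a difference of responses of -1.28 ± 0.22 (adjusted p = 0.00507). Pbx3, a homeobox partner of HOX proteins, differed by -1.24 ± 0.21 (adjusted p = 0.00505), with control levels of -0.78 to 0.20 and KO levels of -1.81 to -1.55 at the end. Lactb, a mitochondrial protease-like protein, rose to between 1.04 and 2.28 in control cells and stayed between 0.27 and 0.63 in KO cells (-1.09 ± 0.21, adjusted p = 0.00795). Fyn, a Src-family kinase, ended at 1.15 to 1.91 in control cells and 0.49 to 0.84 in KO cells (-1.15 ± 0.21, adjusted p = 0.00767). Glcci1, Nlk, Elmo1, Glud1, Pbx3, Lactb and Fyn were all called without replicate 2, as were 23 of the 27.

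Of the 14 negative genes with a higher start, 11 fell in KO cells with control cells not called, 1 fell in KO cells and rose in control cells, and in 2 control cells rose and KO cells were not called. Flvcr2, a choline transporter of the heme-transporter family, was at 0.61, 0.88, 0.72, 0.30 and 0.40 in unstimulated control cells. In unstimulated KO cells it was at 4.01, 2.96, 2.44, 2.81 and 3.58, and at 24 h it was at 1.21, 1.09, 0.42, 0.21 and 0.67. Control cells at 24 h were at 0.41, 0.97, 0.48, -0.01 and 0.05. Only the unstimulated KO arrays stood apart. The difference was -2.24 ± 0.39 (adjusted p = 0.00507; without replicate 2, -2.09 and 0.00927). Tcf7l2, a transcription factor of Wnt signalling, was at 1.27, 1.48, 1.55, 1.36 and 0.53 in unstimulated KO cells and between -1.73 and -0.89 at 24 h. Control cells were between -1.99 and -0.28 and between -2.03 and -0.94. Its difference of -1.92 ± 0.46 (adjusted p = 0.0395) was not called without replicate 2 (-1.75, adjusted p = 0.0761) and in 14 of the 20 fits that leave out 1 array.

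Slc39a8 encodes a transporter that brings zinc and manganese into the cell. KO cells went from between 0.38 and 0.78 to between -0.78 and 0.12, and control cells from between -0.81 and -0.20 to between -0.73 and 1.06. The difference was -1.60 ± 0.35 (adjusted p = 0.0232; without replicate 2, -1.60 and 0.0345), and it was lost without KO unstimulated replicates 1 and 5 (-1.46, adjusted p = 0.0838). Kif3a, a kinesin motor subunit, was at 0.78, 0.03, 0.05, 0.05 and 0.20 in unstimulated KO cells and between -1.40 and -1.08 in unstimulated control cells. At 24 h it was between -1.43 and -0.04 and between -1.27 and -0.59, and the difference was -1.28 ± 0.29 (adjusted p = 0.0264; without replicate 2, -1.40 and 0.0132). That call too was lost without KO unstimulated replicates 1 and 5 (-1.10, adjusted p = 0.0859). Without replicate 2, 5 of these 14 kept their call, and 12 did with control LPS 6 h replicate 3 left out as well.

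The 5 genes that crossed from higher to lower kept their call without replicate 2. Pcyt1a, the rate-limiting enzyme of phosphatidylcholine synthesis, was at 0.23, 0.35, 0.36, 0.18 and 0.04 in unstimulated control cells and at 1.02, 0.91, 0.89, 0.85 and 0.65 in unstimulated KO cells. At 24 h the order turned, with 0.94, 0.73, 1.28, 0.33 and 0.80 in control cells and 0.32, 0.23, 0.03, -0.09 and 0.21 in KO cells. Neither pair of groups overlapped. The difference was -1.31 ± 0.18 (adjusted p = 0.000675; without replicate 2, -1.33 and 0.000711).

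Gigyf2, a protein that represses translation at the mRNA cap, differed by -1.25 ± 0.20 (adjusted p = 0.00360). Its unstimulated levels were -2.13 to -1.82 in control cells and -1.78 to -1.20 in KO cells, and its 24 h levels were -1.50 to -0.66 and -2.02 to -1.64. Mpp5, a scaffold of cell polarity, differed by -1.09 ± 0.19 (adjusted p = 0.00507). It rose in control cells from between -0.70 and -0.57 to between -0.04 and 0.49, while KO cells were between -0.08 and 0.25 and then between -0.26 and 0.01. Bbc3 encodes PUMA, an inducer of apoptosis, and it fell in KO cells from between 1.06 and 1.32 to between -0.12 and 0.55, with control cells between 0.16 and 0.77 and then 0.32 and 1.24. Its difference was -1.11 ± 0.23 (adjusted p = 0.0177; without replicate 2, -1.0 and 0.0316, with the lower end no longer called at 0.138), and the call was lost without KO unstimulated replicates 1 and 5 (-1.04, adjusted p = 0.0605). Ckap5, which aids microtubule growth and was chosen after its values were seen, differed by -1.08 ± 0.22 (adjusted p = 0.0136).

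Genes that differed at both ends in 1 direction were few, and those named were chosen after their values were seen. Suox, the mitochondrial sulfite oxidase, was lower in KO cells at both times and rose in control cells, from between 0.52 and 1.30 to between 1.71 and 2.37. KO cells were between -0.28 and 0.34 and then between -0.33 and 0.40, and the difference was -1.14 ± 0.22 (adjusted p = 0.00981). Celf6, an RNA-binding protein, took the same course (-1.05 ± 0.23, adjusted p = 0.0213) and was not well above background on any unstimulated KO array. The natural killer receptor genes Klra8 and Klra9 are close copies whose probes may share signal. These genes and the phosphatase gene Dusp13 were called higher in KO cells at both times and fell there. At 24 h none of them was well above background on any control array. Klra8 and Klra9 were well above background on only 1 KO array each at 24 h, and Dusp13 on all 5. The sizes of their differences at 24 h, and of their differences of responses, are therefore known only roughly. Without replicate 2 Klra9 was not called for the difference (adjusted p = 0.0630) and Dusp13 was not called higher at 24 h (adjusted p = 0.146). Klra8 was at least 2.35-fold higher in unstimulated KO cells, where it was well above background on all arrays and on no control array.

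The arrays at 6 h of LPS, which the difference does not use, give the genotype difference at an earlier time, here with and without control LPS 6 h replicate 3, which stood apart. Of the 24 genes with a higher end, 11 were already higher in KO cells at 6 h and 0 lower, beside 6.22% of all genes called higher, and without that array 10 were higher and 0 lower, beside 5.87%. Slc1a2 was higher there by 2.76, Hdac9 by 1.95 and Atp1b1 by 1.61, all called with and without it. Atp1b1 was not well above background on any control array at 6 h, so its 1.61 is no measured size. The filter on dim probes also counted the arrays at 6 h, so treated KO arrays alone could admit such a gene. Of the 20 low-start genes 3 were called lower and 2 higher at 6 h, and Gbp2 (0.61) and Zbp1 (0.48) were not called. Without that array these differences were 0.19 and 0.09, and 2 of the 20 were called lower and 2 higher. Of the 27 with a lower end 8 were called lower at 6 h (5.88% of all genes were) and 0 higher, or 9 and 0 without that array (6.51%), with Elmo1 at -0.91 called and Glcci1 at 0.42 not called.

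Interferon-stimulated genes as a list leaned to a larger rise in KO cells, but 2 of 44 tested members (Zbp1 and Gbp2) were called and 0 in the other direction. The difference was above 0 in 42 of 44, beside 51.8% of all genes, with a median of 1.29 (all genes 0.014). At an unadjusted p under 0.05 (limma) there were 10 members, beside 11.3% of all genes. Without replicate 2 it was above 0 in 41 with a median of 0.70, and with array weights in 36 with a median of 0.55. With slide as a fixed block the direction turned, with 3 of 44 above 0, a median of -3.9 and 34 called. The median member was 0.27 lower in KO cells at the start and 0.83 higher at 24 h, or 0.43 higher without replicate 2. Of the 44, 3 were called lower at the start, near the share of all genes (7.16%), and 0 were called at 24 h (15.5% of all genes were, either way).

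Single arrays show how the list moved. The median rise of the 44 genes in control cells was 3.23, 0.02, 3.42, 1.68 and 1.85 on replicates 1 to 5. In KO cells it was 3.62, 3.90, 4.10, 3.22 and 3.08. KO replicates 1 to 3 were above every control array, while KO replicates 4 and 5 lay under control replicates 1 and 3. Ifit1, an RNA-binding antiviral protein, was at 4.57, -1.50, 4.41, 2.74 and 2.68 in control cells at 24 h, beside -1.55 to -1.44 unstimulated, and at 4.94, 5.16, 5.27, 4.11 and 3.94 in KO cells. Its difference was 2.43 ± 1.42 (adjusted p = 0.561), and 1.41 without replicate 2. Irf7, the interferon regulatory factor that sustains interferon production, was at 3.97, -1.61, 4.10, 1.92 and 2.46 in control cells and at 4.08, 4.35, 4.40, 3.37 and 2.98 in KO cells, a difference of 1.81 ± 1.14 (adjusted p = 0.599). The error is pooled over the 6 groups, and control LPS 6 h replicate 3 also lay far from its group in both genes. It was at -1.62 for Ifit1 (4.23 to 6.21 on the other control arrays at 6 h) and at -1.79 for Irf7 (2.30 to 3.53). With this array and control LPS 24 h replicate 2 both left out, the difference was 1.41 ± 0.55 for Ifit1 (adjusted p = 0.226) and 0.86 ± 0.52 for Irf7 (adjusted p = 0.556).

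Rtp4, an interferon-induced chaperone, had the largest difference of the list. It was at -4.28, -1.62, -1.11, -1.55 and -3.90 in unstimulated KO cells and at 2.53 to 3.17 at 24 h. Its difference was 3.34 ± 1.08 (adjusted p = 0.156; 2.64 without replicate 2). Gbp3, an interferon-induced GTPase, differed by 3.00 ± 1.05 (adjusted p = 0.208). Its starts overlapped (0.69 to 2.54 in control cells and 0.21 to 1.04 in KO cells), as did its 24 h levels (1.80 to 5.15 and 4.34 to 6.52). Ifi27l2a, an interferon-induced mitochondrial protein, was called lower at the start by 3.70 and had a difference of 2.91 ± 1.03 (adjusted p = 0.209). Cxcl9, a chemokine that draws T cells, was 1 of the 2 members below 0 (-0.35 ± 0.42, adjusted p = 0.817).

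**Figure D3:**
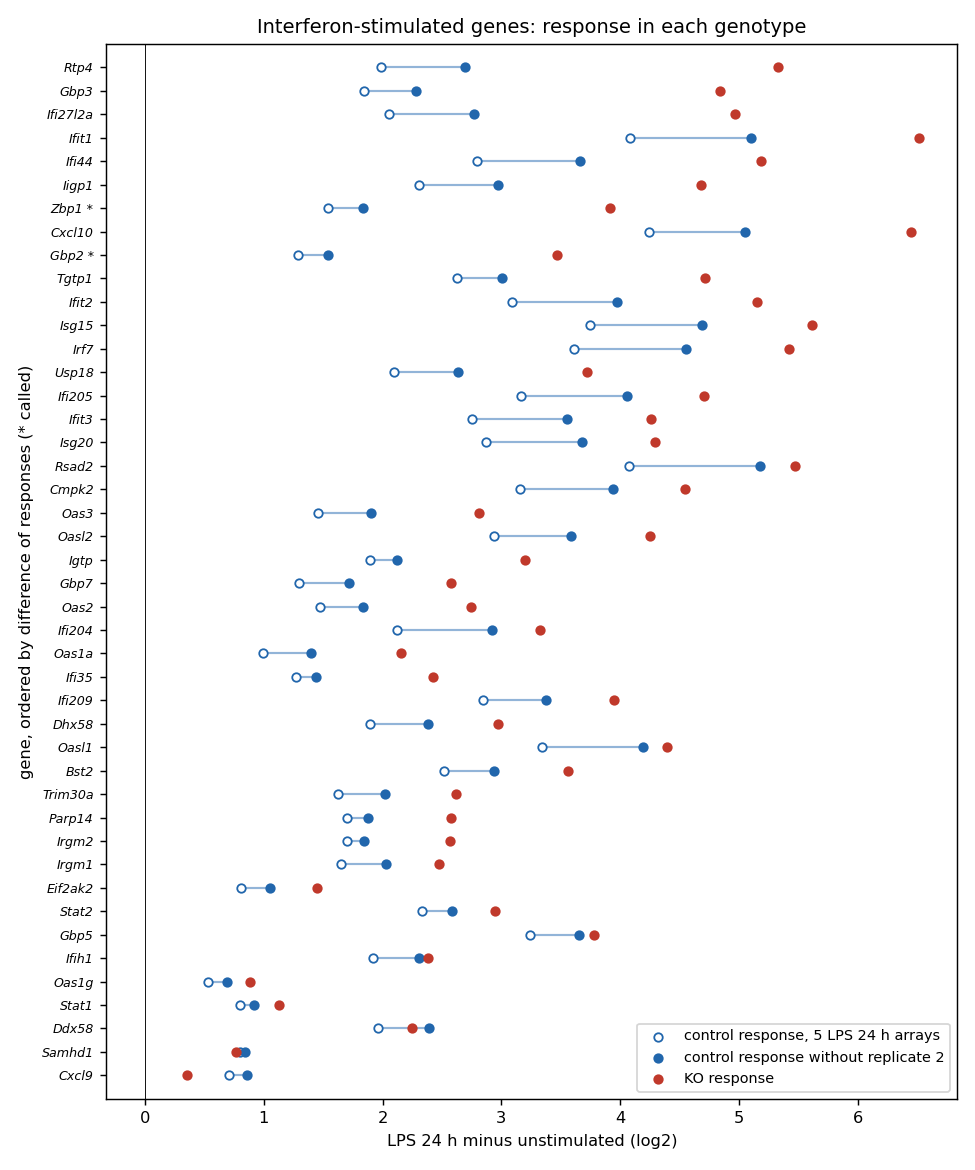
LPS 24 h response (log2, x axis) of 44 interferon-stimulated genes (y axis, ordered by the difference of responses): KO in red, control in open blue with all 5 arrays and in filled blue without replicate 2. The KO response is above the control response in 42 genes with replicate 2 and in 41 without it, and 2 genes are marked as called.

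Proinflammatory genes leaned the same way with 0 of 28 called and 5 at an unadjusted p under 0.05 (limma), beside 11.3% of all genes. The median difference was 0.67 and 0.30 without replicate 2, on which the median rise was -0.08 beside 2.05 to 2.47 on the other control arrays. The subunit gene Il12a was at 2.01, -0.30, 1.93, 1.83 and 1.82 in control cells and 3.11 to 3.75 in KO cells at 24 h, with a difference of 1.83 ± 0.50 (adjusted p = 0.0751) and 1.39 without replicate 2. The neutrophil chemokine gene Cxcl1 differed by 2.85 ± 1.24 (adjusted p = 0.361), with control levels from -4.74 to 1.11.

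Maturation and migration genes were the clearest list with a low start. Of 30 tested, 20 were lower in KO cells at the start (7.16% of all genes were) and 11 at 24 h (8.44%), with medians of -1.34 and -0.55. In KO cells 24 rose (10.3% of all genes did) and in control cells 11 (7.24%). The median difference of responses was 0.46 and 0.50 without replicate 2. Of the 30, 0 were called and 10 were at an unadjusted p under 0.05 (limma), beside 11.3% of all genes. Traf1, an adaptor of TNF receptors, was at 3.69 to 4.30 in unstimulated control cells and at 0.53, 2.24, 2.42, 2.35 and 1.16 in unstimulated KO cells. At 24 h it was at 5.34 to 5.81 and 5.17 to 5.35, and the difference was 1.91 ± 0.54 (adjusted p = 0.0957). Cd86, a ligand that costimulates T cells, differed by 1.58 ± 0.66 (adjusted p = 0.325) and Ccl5, a chemokine, by 2.83 ± 1.13 (adjusted p = 0.291). Socs2, a brake on cytokine signalling, was the lowest at -0.59 ± 0.25 (adjusted p = 0.336). MHC class II genes had a median of 0.41 over 16 tested, with 0 called. Of the 16, 8 were lower at the start (7.16% of all genes were) and 3 at 24 h (8.44%).

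MHC class I loading and immunoproteasome genes had 1 of 17 called (Psmb8), with a median of 0.68 and 0.52 without replicate 2. Psmb9, the partner subunit of Psmb8, differed by 1.24 ± 0.39 (adjusted p = 0.146) and Psme1, a proteasome activator subunit, by 1.01 ± 0.27 (adjusted p = 0.0696). Feedback inhibitors had 1 of 26 called (Nfkbie) and a median of 0.15. IRF factors and their partners had a median of -0.10 over 23, with 0 called. At an unadjusted p under 0.05 (limma) there were 3, near the share of all genes (11.3%). Among them Irf4 itself rose in KO cells by 1.46, while its change of 0.73 in control cells was not called (adjusted p = 0.0716). The difference of responses did not pass the test (0.73 ± 0.38, adjusted p = 0.479).

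Sterol synthesis genes also had a low start in KO cells. Of 24 tested, 16 were lower in KO cells at the start (7.16% of all genes were) and 7 at 24 h (8.44%), and 9 fell in control cells (5.1% of all genes) and 3 in KO cells (7.81%). The median difference was 0.38, and 0.55 without replicate 2.

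Glycolysis genes had a positive difference in 21 of 22 members with a median of 0.36, and oxidative phosphorylation genes in 46 of 51 with a median of 0.25. In both lists 0 were called, and 6 and 10 members were at an unadjusted p under 0.05 (limma), beside 11.3% of all genes. The glycolytic genes Pgk1 (0.79 ± 0.23, adjusted p = 0.0977) and Eno1 (0.89 ± 0.27, adjusted p = 0.119) did not pass the test. In both lists the median member was lower in KO cells at the start (-0.29 for each) and near 0 at 24 h (0.08 and -0.05). Of 25 integrated stress response genes, 9 were called higher in KO cells at the start (6.96% of all genes were) and 10 at 24 h (7.02%), with medians of 0.55 and 0.89 and a median difference of responses of 0.27.

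The other lists had 0 genes called by limma with all arrays. Their median differences were 0.69 for 4 GIMAP GTPases, 0.26 for 25 pattern recognition genes, 0.19 for 35 lysosome genes and 0.05 for 32 cell cycle genes. They were -0.01 for 16 immediate-early and heat shock genes, -0.12 for 22 lipid efflux genes and -0.12 for 23 arginine and alternative activation genes. Among cell type markers they were 0.07 for macrophages, -0.26 for neutrophils, 0.21 for plasmacytoid dendritic cells, 0.03 for B cells, 0.17 for T and NK cells, -0.16 for mast cells with basophils and eosinophils, 0.22 for erythroid cells with megakaryocytes, 0.10 for stroma with endothelium and -0.10 for dendritic cells.

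**Figure D4:**
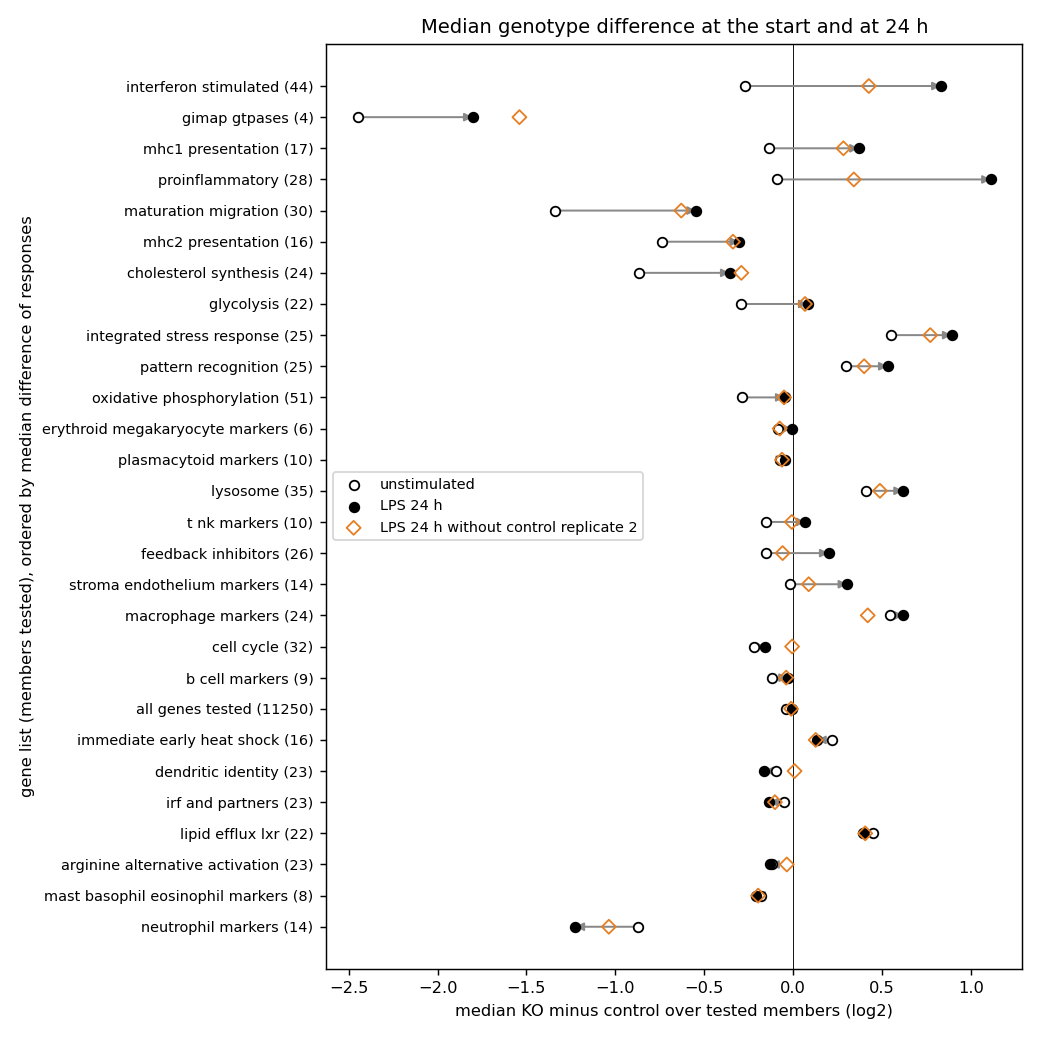
Median KO-minus-control difference (log2, x axis) of the tested members of each gene list (y axis, number tested in brackets), unstimulated (open circle) and at 24 h of LPS (filled circle), with an arrow from start to end and an orange diamond for 24 h without control replicate 2. Maturation, MHC class II and sterol synthesis medians moved up from below 0 towards 0, and the interferon-stimulated and proinflammatory medians crossed 0, with a shorter move without replicate 2.

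Leaving out replicate 2 also brought in 24 genes, of which 3 are named after their values were seen. Alox15, a lipoxygenase that oxidises membrane lipids, was at 1.95 to 2.78 in unstimulated control cells and at 0.28, 2.57, -0.03, 0.51 and 0.45 at 24 h, and lay between -0.26 and 0.26 on all KO arrays, none of them well above background. Its difference went from 1.51 (adjusted p = 0.148) to 1.96 (adjusted p = 0.00574). It was well above background on only 1 control array at 24 h, so the size of this difference is known only roughly. Robo4, a receptor known from endothelium, was at 3.57 on replicate 2 and at 0.22 to 0.71 on the other treated control arrays, and its difference went from 0.91 to 1.53 (adjusted p = 0.0143). Spib, an ETS factor that can pair with IRF4, was at 2.08 on replicate 2 and at -0.09 to 0.30 on the others, and went from 0.46 to 0.86 (adjusted p = 0.0372). In these 3 genes replicate 2 lay within or above the unstimulated control range.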

How the data were processed

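Dendritic cell RNA labelled with Cy5 was hybridised with a Cy3-labelled universal mouse reference, without a dye swap, on Agilent arrays. Per the file headers the deposited scanner files came from Feature Extraction 10.7.3.1 and gave median spot and background intensity, and a log10 ratio that the scanner software had background-subtracted and dye-normalised. The authors' deposited table holds log2 ratios per probe. The submitters' processing notes name limma without a version. The deposited and recomputed log2 ratios correlated at 0.999883 to 0.999998 over the 30 arrays.

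Intensities were corrected with normexp (offset 50) and loess in limma 3.58.1 (R 4.3.3), leaving 1639 control spots out of the fit, and spots of a probe were averaged. RefSeq accessions named 22951 of 41174 probes. The brightest probe stood for each gene, and a gene was tested if well above background on all 5 arrays of at least 1 of 6 groups, which left 11250 genes. One mean per group was fitted over 30 arrays (24 residual degrees of freedom), with Benjamini-Hochberg adjustment within each comparison and a call at an adjusted p under 0.05. Errors printed after ± in the report are standard errors of this fit, with n = 5 per group. Precision is limited by the number of arrays. The fit was also run on simulated data with independent normal noise and no slide effect. That differs from these arrays, and no result here rests on it.

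Genes were named by rule: the 8 largest called each way, the 4 largest of each start and end set of at least 5 genes, up to 3 called members per list, and Irf4. List members that were not called are named with their values, and other genes are said to be chosen after their values were seen. The members and the 27 gene lists were chosen with earlier results of these data known. Replicate numbers were not shown to pair the arrays. Alternatives changed the background, normalisation, filter, probe choice, arrays, variance model and blocks.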

Additional observations from a re-analysis of the deposited data

Results flagged for a closer look

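Among 101 groups of 5 arrays looked at for the named genes and the slope, 14 had 1 array far from the other 4, where chance gives about 1 in 20. KO unstimulated replicate 5 was that array in 6 of them: Serinc5 at -0.27, Tcf7l2 at 0.53, Glcci1 at -1.36, Nlk at 0.05, Gigyf2 at -1.78 and Nfkbie at 0.77. KO unstimulated replicate 1 was far from the others for Ptpn22 (-2.63) and Kif3a (0.78), and replicate 2 of that group for Slc1a2 (-0.04). Control LPS 24 h replicate 2 stood apart for Elmo1 (3.12), for Kif3a (-1.27) and for its slope on the KO response (0.137). Elmo1 was also low on control unstimulated replicate 5 (0.58), and Glcci1 was high on KO LPS 24 h replicate 1 (-1.81).

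The response differed between genotypes, by the test of the difference itself, in 99 genes. Probes without a gene name, which no list or comparison used, held 48 more called differences among 6269 past the filter (0.766%), 11 above 0 and 37 below 0.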

How the results depend on the processing

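Leaving out 1 array at a time gave 50 to 108 genes called for the difference, 22 to 55 above 0 and 27 to 53 below 0, with the fewest without KO unstimulated replicate 1. The low-start set then had 7 to 24 genes, the high-end set 13 to 32, the high-start set 3 to 16 and the low-end set 16 to 31. Called genes numbered 1104 to 1741 at the start, 1269 to 1839 at 24 h, 957 to 1755 for the control response and 1527 to 2264 for the KO response.

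In what follows the 4 sets are given in the order low start, high end, high start, low end, and the comparisons in the order start, 24 h, control response, KO response. Median centring gave 20 calls (15 above 0 or 75%, 5 below, beside 48.5% above 0 as reported), sets of 5, 6, 2 and 3, and 933, 998, 634 and 1093. Cy5 alone gave 209 (113 and 96) and sets of 44, 57, 30 and 49. Array weights gave 2627 (1310 and 1317), sets of 448, 435, 385 and 459, and 5795, 4945, 5683 and 5900. The scanner's log ratios gave 60.7% of 117 calls above 0 (71 and 46), a low-start set of 37 and a high-start set of 9. The mean of all probes gave a high-start set of 22. Probes well above background on all 20 arrays gave 31 above 0, a high-end set of 11 and a high-start set of 7, with fewer genes tested. The 20 arrays alone gave 75 above 0.

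The replicate block gave 511 (223 and 288), sets of 90, 101, 103 and 120, and 3340, 3042, 2755 and 3721. Same-numbered arrays correlated from -0.34 to 0.73 (from 0.30 to 0.65 for number 3 and from 0.53 to 0.73 for number 5). Of 20 arrays 8 correlated best with their own number, where numbers without meaning give 4. Since not every pair was over 0.1, the numbers were not taken as pairs. A term for replicates 4 and 5 gave 614 (274 and 340), sets of 109, 128, 129 and 137, and 3443, 3116, 2857 and 3818. Slide as a random block gave 35 (15 and 20) and sets of 5, 7, 2 and 13. Slide as a fixed block gave 6032 (3052 and 2980), sets of 671, 358, 571 and 486, and 5695, 5068, 4710 and 6226. It reversed Zbp1 (-0.0793), Gbp2 (-0.296), Hdac9 (-1.91), Slc39a8 (1.86), Psmb8 (-0.882), Nfkbie (-0.571) and Irf4 (-0.241), and the cause was not tested. Without both arrays of the later scan day there were 201 (106 and 95), sets of 57 low-start, 27 high-start and 43 low-end genes, and 2235 for the control response. Without control LPS 6 h replicate 3, chosen after seeing the data, there were 183 (97 and 86) and sets of 44, 39, 24 and 43. Without KO unstimulated replicates 1 and 5, chosen after seeing the data, there were 30 above 0 of 84 (35.7%), 8 low-start genes and 903 at the start.

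Over 19 settings other than leaving out 1 of the 20 arrays, 402 of 467 values of named genes kept their direction and side of the threshold, 58 kept their direction and lost the call, and 7 reversed. Pcyt1a and Mpp5 kept their call in all 19.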
